A study of Mus musculus with 2 samples.

Results

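The barcodes described here are those in which more than 10% of the unique molecular identifiers (UMIs, 1 per captured RNA molecule) came from genes of the mitochondrial genome, among barcodes with at least 500 detected genes. They numbered 4019 of 16055 barcodes with that many genes, out of 17474 deposited barcodes. The control library held 2339 of 8081 (28.9%, 95% interval 28.0 to 29.9) and the mutant library 1680 of 7974 (21.1%, 20.2 to 21.98). These barcodes were chosen by their mitochondrial share, so every value of that share is a description. In what follows they are called high-mitochondrial barcodes, and the barcodes at or below 10% are called the other barcodes.

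The study took droplet-based single-cell RNA sequencing of sorted whole-brain cells of adult mice, with 1 library per genotype. Control mice were Csf1rfl/fl, with a floxed gene for the growth factor receptor on which microglia and other macrophages depend. Mutant mice were Mrc1Cre:Csf1rfl/fl and shared the floxed alleles, with Cre recombinase driven by Mrc1, the mannose receptor gene, so that recombination is limited to cells that use or have used Mrc1. The sort combined mural cells and fibroblasts (CD13+ and/or CD140a+O4-), CD31+ endothelial cells, ACSA-2+ astrocytes, CD11bhi F4/80+ border-associated macrophages and CD11b+ F4/80hi microglia. No gate was stated for choroid plexus epithelium, ependymal cells, oligodendrocytes or neurons, and the number and sex of the mice are not given in the labels. Since there is 1 library per genotype and barcodes are not replicates, no test between groups was made. Intervals (exact binomial for shares, exact Poisson for counts) cover counting error only.

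Mitochondria keep a small circular genome that encodes core subunits of the respiratory chain and of ATP synthase, together with the rRNAs and tRNAs needed to translate them. Most of its mRNAs are polyadenylated and are caught by poly(dT) capture beside the nuclear mRNAs. A high mitochondrial share is widely used as a filter, since cells with a torn plasma membrane can lose cytosolic RNA and keep their mitochondria, and it is also known from intact cells that are dense in mitochondria. Neither source was tested here.

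Depth was similar in both libraries, with 85716531 UMIs over 8739 control barcodes and 82806348 over 8735 mutant barcodes. High-mitochondrial barcodes held a median of 7136 UMIs in the control and 7488 in the mutant, against 8794.5 and 8940.5 for the other barcodes. They contributed 25.1% of all UMIs and 51.0% of mitochondrial UMIs in the control, and 17.3% and 37.9% in the mutant. Their median mitochondrial share was 14.2% and 13.1%, and the highest was 86.8% and 75.1%. Called doublets made up 1.84% and 1.90% of them, and were removed before cell types were described. The libraries shared 17 cell barcodes, of which 0 were high-mitochondrial in both. In border macrophage-like high-mitochondrial barcodes the level of the floxed gene Csf1r, per 1000000 non-mitochondrial UMIs, was 1351 (1203 to 1513) for control and 1169 (862 to 1549.9) for mutant mice. The mutant value rests on 48 UMIs over 14 barcodes. In the other border macrophage-like barcodes the level was 1506 (1470 to 1543) for control and 1141 (1092 to 1191) for mutant mice. The labels do not say which part of Csf1r is removed, so reads of its 3′ end do not check the genotype.

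Cell types were rebuilt by clustering all barcodes without mitochondrial genes, which therefore did not place a barcode, and each class is written as X-like because it rests on marker RNA alone. In the control the largest class of high-mitochondrial barcodes was astrocyte-like, with 994 of 2296 (43.3%), and in the mutant it was choroid plexus epithelium-like, with 850 of 1648 (51.6%). Of the 994 astrocyte-like ones, 213 lay in cluster 10, whose name is weaker. That cluster passed 4 of 12 astrocyte markers, with 0 among its leading 10 genes. Microglia-like barcodes, which made up 48.2% and 48.3% of the other barcodes, made up 4.66% and 6.31% of the high-mitochondrial ones. Clusters without a name held 330 (14.4%) and 253 (15.4%) of the high-mitochondrial barcodes, close to their share among the other barcodes (14.1% and 14.5%). When each high-mitochondrial barcode was instead given the class of most of its nearest neighbours at or below 10%, 3798 of 3944 (96.3%) kept their class, but the number of microglia-like ones went from 107 to 162 in the control and from 104 to 161 in the mutant.

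Among the named classes with at least 20 barcodes above 10% in the control, the share above 10% ranged from 3.40% to 59.6%. Microglia-like barcodes, from the resident immune cells of the brain tissue, had 107 of 2816 in the control (3.80%, 3.12 to 4.57) and 104 of 3059 in the mutant (3.40%, 2.79 to 4.10). Border macrophage-like barcodes, from macrophages of vessels and meninges, had 63 of 442 in the control (14.3%, 11.1 to 17.9) and 14 of 180 in the mutant (7.78%, 4.32 to 12.7). Choroid plexus epithelium-like barcodes, from the cells that secrete cerebrospinal fluid, had 567 of 1202 in the control (47.2%, 44.3 to 50.04) and 850 of 1919 in the mutant (44.3%, 42.1 to 46.5). The intervals of the macrophage classes did not overlap those of the choroid plexus class in either library, while choroid plexus epithelium-like shares overlapped between libraries.

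Astrocyte-like and ependymal-like barcodes had a high share in the control and a lower one in the mutant. Astrocyte-like barcodes had 994 of 1668 in the control (59.6%, 57.2 to 62.0) and 141 of 380 in the mutant (37.1%, 32.2 to 42.2). Ependymal-like barcodes, from the ciliated cells that line the ventricles, had 54 of 101 in the control (53.5%, 43.3 to 63.5) and 17 of 103 in the mutant (16.5%, 9.92 to 25.1). In both classes the control interval lay wholly above the mutant interval. Without the astrocyte-like class, 20.8% (19.8 to 21.9) of control and 20.4% (19.5 to 21.3) of mutant barcodes were above 10%. Like totals do not mean like classes. Shares were also higher in the control in the border macrophage-like and fibroblast-like classes, whose intervals overlapped between libraries, and in cluster 1, whose intervals did not. The choroid plexus epithelium-like class, with a high share in both, was 1202 of these 6249 control and 1919 of these 7390 mutant barcodes. The totals therefore depend on class make-up too. Whether genotype or the handling of a library moved these shares cannot be told apart with 1 library each.

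Endothelial-like barcodes, from the lining of vessels, had 46 of 173 in the control (26.6%, 20.2 to 33.8) and 68 of 253 in the mutant (26.9%, 21.5 to 32.8), which overlapped. At a clustering resolution of 2 only 4 control and 8 mutant high-mitochondrial barcodes were endothelial-like, so the make-up of this class depends on that setting. Fibroblast-like barcodes had 108 of 290 in the control (37.2%, 31.7 to 43.1) and 195 of 670 in the mutant (29.1%, 25.7 to 32.7). Of these 108 and 195, 88 and 170 lay in cluster 13, which passed only 3 of 10 fibroblast markers. Cluster 1 passed all 12 microglial markers but was shallow, with none of them among its leading 10 genes, and stayed unnamed. It had 248 of 985 in the control (25.2%, 22.5 to 28.0) and 170 of 930 in the mutant (18.3%, 15.8 to 20.9), above the microglia-like share in both libraries. Oligodendrocyte-like barcodes held only 15 and 4 high-mitochondrial ones.

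**Figure D1:**
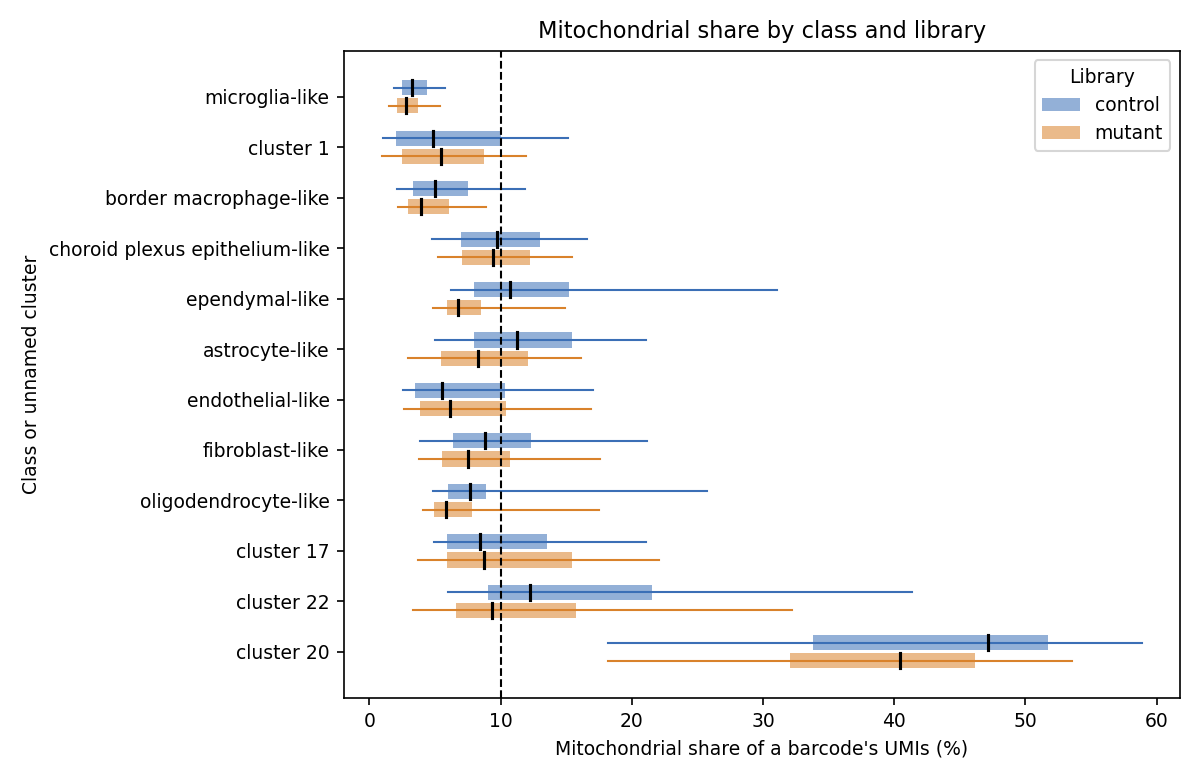
Mitochondrial share of the UMIs of each barcode (horizontal axis, percent) by class or unnamed cluster and library. Boxes span the 25th to 75th percentile, black bars mark the median, lines reach the 10th and 90th percentile and the dashed line marks 10%. Microglia-like medians are 3.27% and 2.78%, choroid plexus epithelium-like medians lie just under the line at 9.72% and 9.41%, and cluster 20 lies far to the right.

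**Figure D2:**
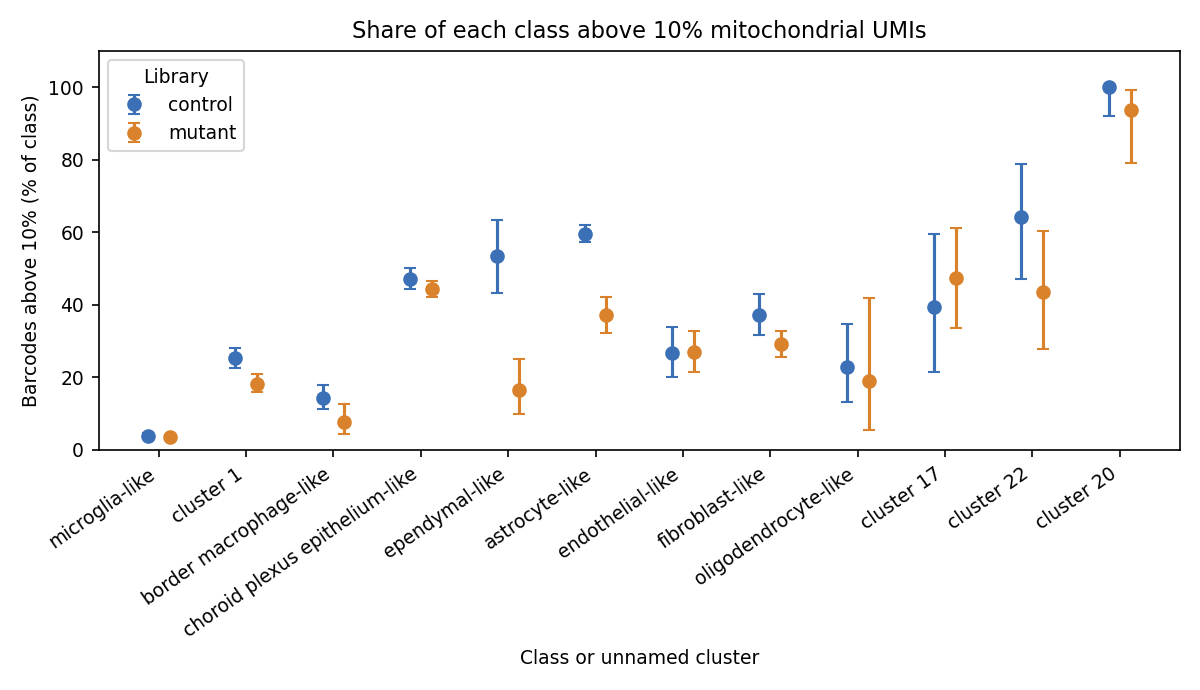
Share of the barcodes of each class above 10% mitochondrial UMIs (percent), with exact binomial 95% intervals for counting error. Control and mutant overlap for the choroid plexus epithelium-like class and separate for the astrocyte-like and ependymal-like classes.

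The median mitochondrial share of a class showed what the 10% line does to it. The line ran through the middle of the choroid plexus epithelium-like distribution (median 9.72% and 9.41%) and the control astrocyte-like one (11.3%, against 8.27% in the mutant), and through the far tail of the microglia-like one, whose 90th percentile was 5.74% and 5.41%. Just below the line, at 9 to 10%, lay 738 barcodes with a median of 10139 UMIs, of which 41.1% were choroid plexus epithelium-like and 21.95% astrocyte-like. Just above it, at 10 to 11%, lay 696 with a median of 9124 UMIs, of which 41.8% and 23.7% were of those classes. Above 20% lay 669 barcodes, led by the astrocyte-like class with 206 (30.8%), the choroid plexus epithelium-like class with 109 (16.3%), the fibroblast-like class with 89 (13.3%) and unnamed cluster 20 with 68 (10.2%). Above 50% lay 57, of which cluster 20 held 20 (35.1%).

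Within the mitochondrial UMIs, the rRNAs took a larger part in high-mitochondrial barcodes of every class. The share of mt-Rnr1 and mt-Rnr2, the small and large mitochondrial rRNA, was higher in 16 of 16 pairs of class and library, by a median of 3.58 percentage points (0.645 to 9.18). It ranged from 20.4% (mutant choroid plexus epithelium-like) to 40.9% (control endothelial-like) in high-mitochondrial barcodes, against 19.4% to 36.4% in the other barcodes of the same classes. Both rRNAs were counted in the share that set the 10% line. With the 13 protein-coding genes alone, 1236 of the 2339 control barcodes and 899 of the 1680 mutant ones stayed above 10%.

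The mRNA make-up was led in all high-mitochondrial barcodes by mt-Co3, a subunit of cytochrome c oxidase (respiratory complex IV), with 18.4% of mitochondrial mRNA UMIs in the control and 17.05% in the mutant, and by mt-Atp6, a subunit of ATP synthase, with 17.9% and 16.2%. The catalytic complex IV subunit mt-Co1 followed with 13.7% and 14.4%, and mt-Cytb of complex III held 11.2% and 10.98%. The complex I subunit mt-Nd6, the mRNA encoded on the other strand, was the least abundant at 0.130% and 0.229%. Against the other barcodes of the same class, the share of mt-Co1 was lower in 16 of 16 pairs, by a median of 0.64 points, while mt-Co3 and mt-Atp6 were each higher in 14 of 16. The summed complex I mRNAs were lower in 11 of 16 pairs and complex IV in 9 of 16. The mitochondrial mRNA make-up thus moved by at most 1.98 points for any 1 gene, in mt-Co3.

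In the 8 groups compared, median non-mitochondrial UMIs were lower and median mitochondrial UMIs higher in high-mitochondrial barcodes. Both numbers enter the share that chose the barcodes, so they are a description. At a threshold of 5% the direction for non-mitochondrial UMIs turned in control astrocyte-like barcodes (ratio 1.02) and in control and mutant fibroblast-like ones (1.51 and 1.08). Microglia-like ones had a median of 1789 non-mitochondrial UMIs in the control and 1786 in the mutant, against 8480 and 8470 in the other microglia-like barcodes, a ratio of 0.211 in both. Their median mitochondrial UMIs were 358 and 309.5 against 296 and 244. Border macrophage-like barcodes were similar, with ratios of 0.296 and 0.287 for non-mitochondrial and 1.32 and 1.46 for mitochondrial UMIs, and so were endothelial-like ones, with 0.345 and 0.269 against 1.53 and 1.24.

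Astrocyte-like high-mitochondrial barcodes had 6043 and 4956 non-mitochondrial UMIs against 7866.5 and 6578, ratios of only 0.768 and 0.753, while their mitochondrial UMIs were 1096 and 855 against 573 and 428, ratios of 1.91 and 1.998. Choroid plexus epithelium-like ones had 10936 and 9161.5 non-mitochondrial UMIs against 16056 and 13583. Their mitochondrial UMIs numbered 1754 and 1435.5 against 1144 and 984. In both classes the gap in nuclear-encoded RNA was smaller than in the microglia-like class, and mitochondrial UMIs were 1.46 to 1.998 times those of the other barcodes.

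Detected genes followed depth. Microglia-like high-mitochondrial barcodes had a median of 1130 and 1168.5 genes against 3200 and 3183. After each barcode was thinned to 1000 non-mitochondrial UMIs the medians were 733 and 735 against 711 and 709. Thinning left out 10 (9.35%) and 11 (10.6%) of the microglia-like high-mitochondrial barcodes as too shallow, and 16 (34.8%) and 43 (63.2%) of the endothelial-like ones. Over all classes the median of non-mitochondrial UMIs was 7318 and 7872 (control and mutant) at shares up to 2.5%, 8987 and 9386 at 5 to 10%, and 877 and 881.5 above 50%.

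**Figure D3:**
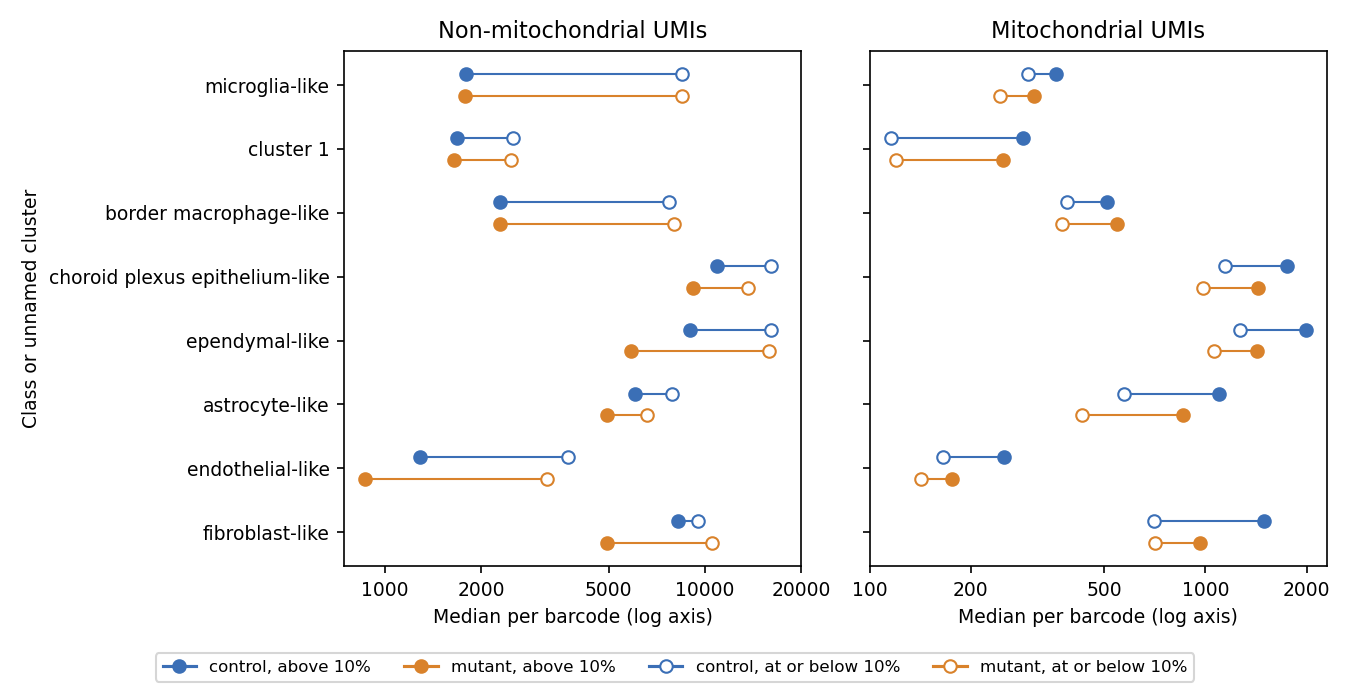
Median non-mitochondrial (left) and mitochondrial (right) UMIs per barcode on log axes, by class and library. Filled points are barcodes above 10% and open points those at or below 10%. Filled points lie left of open ones for non-mitochondrial UMIs, most of all in the microglia-like, border macrophage-like and endothelial-like classes, and right of them for mitochondrial UMIs.

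Expression within a class was compared on non-mitochondrial UMIs, summed per library over the high-mitochondrial and over the other barcodes and scaled to 1000000 non-mitochondrial UMIs (CPM). A gene with at least 50 UMIs in the class in each library counted as measured. It passed the size rule when the ratio of the 2 sums was at least 1.5, or at most its inverse, with an interval that excluded 1 and the same direction in both libraries. Genes whose level in the class was below 10% of their level in another named class are counted apart, since droplets can carry free RNA of other cells.

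Among microglia-like barcodes, 185 of 10970 measured genes (1.69%) were past the size rule higher in high-mitochondrial barcodes and 29 (0.264%) lower. The median log2 ratio over all measured genes was 0.03 in the control and 0.07 in the mutant. With genes of other classes set apart by the 10% criterion, 63 were higher and 29 lower. Of 12 microglial markers, 0 passed in either direction. The purinergic receptor gene P2ry12 stood at 3798 against 4253 CPM (control) and 2913 against 4055 CPM (mutant).

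The named genes that were higher in microglia-like high-mitochondrial barcodes included Pip5k1b (chr19:24294794-24555872), a lipid kinase gene, at 1434 against 731 CPM (control, ratio 1.96, interval 1.79 to 2.15) and 1552 against 713 CPM (mutant, ratio 2.18, interval 1.98 to 2.39). Ppp6r3 (chr19:3454928-3575749), a regulatory subunit of protein phosphatase 6, stood at 5153 against 3013 CPM (control, ratio 1.71, interval 1.63 to 1.79) and 5509 against 2884 CPM (mutant, ratio 1.91, interval 1.82 to 2.01). The cation channel gene Trpm3 stood at 4143 against 2658 CPM (control) and 4227 against 2463 CPM (mutant). Taco1, which encodes the translational activator of the mt-Co1 mRNA, was read at 41.6 against 12.5 CPM (control) and 60.1 against 20.2 CPM (mutant), from 14 and 18 UMIs in high-mitochondrial barcodes. Lysmd4 stood at 175 against 89.9 CPM (control) and 237 against 99.9 CPM (mutant). The neuronal kinase gene Camk2a rested on 11 and 13 UMIs, at 32.7 against 6.97 CPM (control) and 43.4 against 7.09 CPM (mutant).

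The genes that were lower included Actg1, cytoplasmic actin, at 409.8 against 644 CPM (control, ratio 0.636, interval 0.534 to 0.752) and 270.3 against 478 CPM (mutant, ratio 0.565, interval 0.449 to 0.703). Psmb8, a subunit of the immunoproteasome, stood at 71.3 against 176 CPM (control) and 90.1 against 170.2 CPM (mutant). Gpx1, a glutathione peroxidase, stood at 137 against 216 CPM (control) and 123 against 209.8 CPM (mutant), and Bcl2a1b, an anti-apoptotic gene with near-identical copies that can share reads, at 80.2 against 156 CPM (control) and 66.7 against 135 CPM (mutant). The ribosomal protein gene Rpl36a had ratios of 0.620 and 0.592, and Ntpcr had ratios of 0.602 and 0.556 (control and mutant).

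In the microglia-like class, genes of lists that mark other brain cells were higher in high-mitochondrial barcodes. Of 19 measured astrocyte function genes, 13 were past the rule higher and 0 lower, with a median log2 ratio of 1.72 in the control and 1.81 in the mutant. Aldoc, an astrocyte aldolase gene, stood at 122 against 26.7 CPM (control) and 70.1 against 11.1 CPM (mutant). Of 17 choroid plexus secretion and transport genes, 7 were higher, among them Ttr, which encodes the thyroid hormone carrier transthyretin, at 5646 against 1888 CPM (control) and 5569 against 2097 CPM (mutant). The summed 12 choroid plexus markers stood at 5963 against 2006 CPM (control) and 5886 against 2235 CPM (mutant), with 1 of the 12 at 0 in control and 2 at 0 in mutant high-mitochondrial barcodes. The astrocyte markers summed to 1084 against 499 CPM (control) and 624 against 335 CPM (mutant), with 0 and 1 of 12 at 0. Their part in the genes that were higher was not tested.

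Microglia-like high-mitochondrial barcodes lay unevenly over the clusters of the class. Cluster 0, whose leading genes Nrgn and Snap25 encode a postsynaptic and a presynaptic protein of neurons, held 48 of 107 in the control and 27 of 104 in the mutant, but 320 of 2709 and 414 of 2955 of the other barcodes. Without cluster 0, a setting chosen after seeing the data, 73 genes were higher and 12 lower, astrocyte function genes were 6 of 18 and choroid plexus genes 2 of 17. Of the 12 named genes, 7 stayed past the rule and 5 did not (Camk2a, Pip5k1b, Trpm3, Actg1 and Gpx1). In the control, the 8 pituitary markers summed to 5156 CPM in high-mitochondrial against 134 CPM in other microglia-like barcodes, and 1 barcode held 73.3% of the former. Without the top barcode of each side the sums were 1378 against 128 CPM, and 69 of the 107 high-mitochondrial barcodes held a UMI. Cytosolic ribosomal protein genes were lower for 1 of 78, and for 39 with equal weight for each barcode.

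Nuclear genes of the respiratory chain are read against the share of all measured genes past the rule, which was 0.12% to 2% in each direction in the 5 groups of the next sentence and 2.4% and 3.52% in the endothelial-like class. Of 37 measured complex I genes, 0 passed the size rule in the microglia-like, choroid plexus epithelium-like, astrocyte-like and fibroblast-like classes and in cluster 1, and the same held for 4 complex II, 9 complex III, 11 complex IV and 13 ATP synthase genes. Mitochondrial ribosomal protein genes (44 to 73 measured), mitochondrial DNA upkeep genes (6 to 14) and mitochondrial chaperones and proteases (9 or 10) also had 0 past the rule in these classes. In endothelial-like barcodes, 1 of 32 complex I, 1 of 7 complex III, 2 of 11 complex IV and 1 of 13 ATP synthase genes were lower. At these shares a count of 0 or 1 in a list of this size is no result about the list. Integrated stress response genes (1 to 12 measured) had 0 past the rule in all 6 of these groups, and apoptosis and p53 target genes had 1, Cdkn1a, a cell cycle inhibitor gene, lower in endothelial-like barcodes at 56.7 against 195 CPM (control) and 27.2 against 144 CPM (mutant). Of the mitophagy genes, Pink1, which encodes a kinase that marks damaged mitochondria, was higher in high-mitochondrial fibroblast-like barcodes at 48.2 against 28.9 CPM (control) and 47.6 against 31.5 CPM (mutant), and Bnip3l, a mitophagy receptor gene, was lower in high-mitochondrial microglia-like ones at 95.03 against 149.7 CPM (control) and 100.1 against 154 CPM (mutant).

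Choroid plexus epithelium-like barcodes had 22 of 10034 measured genes (0.219%) higher and 12 (0.12%) lower in high-mitochondrial barcodes, and 7 and 3 after genes of other cell types were set apart. Of 12 choroid plexus markers, 0 passed. Ttr stood at 336470.2 against 317357 CPM (control) and 330068 against 312414 CPM (mutant), and Enpp2, the autotaxin gene, at 21401 against 16516 CPM (control) and 21256 against 16678 CPM (mutant). Hspg2 (chr4:137468769-137570630), the basement membrane proteoglycan perlecan, stood at 26.0 against 15.3 CPM (control, ratio 1.70, interval 1.37 to 2.11) and 25.4 against 16.9 CPM (mutant, ratio 1.504, interval 1.25 to 1.81). The mutant ratio lies close to the 1.5 that the rule asks for, and Hspg2 did not pass with equal weight for each barcode (mutant ratio 1.46). From 5 to 10% up to above 20%, the summed cytosolic ribosomal protein genes moved from 73273 to 61497 CPM in the control and from 75668 to 76348 CPM in the mutant.

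Astrocyte-like barcodes had 17 of 7545 measured genes (0.225%) higher and 151 (2%) lower, and 15 and 41 after genes of other cell types were set apart. The genes that were higher included Hsd11b1, which encodes an enzyme that forms active glucocorticoid, at 429 against 238 CPM (control, ratio 1.80, interval 1.69 to 1.92) and 382 against 229 CPM (mutant, ratio 1.66, interval 1.43 to 1.94). The retinoic acid hydroxylase gene Cyp26b1 stood at 164 against 97.4 CPM (control) and 192 against 100.3 CPM (mutant), and the carbonic anhydrase gene Car14 at 121 against 74.6 CPM (control) and 119.6 against 61.0 CPM (mutant). The acid-sensing channel gene Asic1 had ratios of 1.95 and 2.16, the lactoperoxidase gene Lpo ratios of 1.86 and 2.51, and Ccdc24 ratios of 1.70 and 2.59 (control and mutant). Of 12 astrocyte markers, 1 passed, the glutamate transporter gene Slc1a3, at 1443 against 2281 CPM (control, ratio 0.633, interval 0.617 to 0.649) and 1539 against 3002 CPM (mutant, ratio 0.513, interval 0.481 to 0.546). Gja1, the astrocyte gap junction gene, stood at 2326 against 1880.2 CPM (control) and 1602 against 1923 CPM (mutant).

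The astrocyte-like genes that were lower included Gdf10 (chr14:33923587-33937983), a growth factor of the TGF-beta family, at 11.3 against 69.7 CPM (control, ratio 0.162, interval 0.126 to 0.205) and 12.9 against 115 CPM (mutant, ratio 0.112, interval 0.0528 to 0.210). Hopx, a homeodomain cofactor of neural stem cells and astrocytes, stood at 75.4 against 205 CPM (control, ratio 0.368, interval 0.332 to 0.407) and 68.2 against 268 CPM (mutant, ratio 0.255, interval 0.188 to 0.339). Mybpc1, a myosin-binding protein gene, stood at 6.55 against 35.9 CPM (control) and 5.14 against 98.1 CPM (mutant), the cGMP-dependent kinase gene Prkg1 at 34.4 against 125 CPM (control) and 97.7 against 339.6 CPM (mutant) and the splicing regulator gene Rbfox1 at 78.6 against 196 CPM (control) and 153 against 503 CPM (mutant). The neuropeptide gene Npy stood at 2.79 against 40.4 CPM (control) and 1.29 against 34.3 CPM (mutant), with 1 UMI among mutant high-mitochondrial barcodes. Some of these values rest on few of the other barcodes. Npy was read in 32 of 674 (control) and 21 of 239 (mutant) of them, Mybpc1 in 25 and 16, and Gdf10 in 68 and 35. In the control, 1 barcode held 36.7% of the Npy UMIs of the others. Without the barcode with most UMIs of each gene, all 12 named genes still passed.

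High-mitochondrial barcodes lay unevenly over the astrocyte-like clusters. Cluster 19, whose leading genes include the glutamate receptor gene Gria4 and Mybpc1, held 3.22% of control and 7.80% of mutant high-mitochondrial barcodes, against 6.82% and 14.2% of the others. Cluster 9 held 58.5% against 39.6% in the control, and 42.6% against 43.9% in the mutant. Within cluster 9 alone, 9 genes were higher and 59 lower, and of the 12 named genes only Hsd11b1 and Lpo passed. Of the others, 6 (Asic1, Gdf10, Npy, Mybpc1, Prkg1 and Hopx) had too few UMIs there to be measured, and the mutant ratio of Hopx was 1.45. Of 18 homeostatic microglia genes, 14 were lower in astrocyte-like high-mitochondrial barcodes, with a median log2 ratio of -0.92 in the control and -1.18 in the mutant. When each barcode had equal weight, 1 of 18 passed. The summed 12 microglia markers stood at 805 against 1556 CPM (control) and 755 against 1809.6 CPM (mutant), and their part in the result was not tested. Choroid plexus markers summed to 3251 against 2974 CPM (control) and 16251 against 2494 CPM (mutant), and 1 mutant high-mitochondrial barcode held 40.0% of those UMIs in its group. Without the top barcode of each side the mutant sums were 9755 against 2462 CPM. Of 3 measured haemoglobin genes 3 were lower, and 1 control barcode held 57.3% of the erythroid marker UMIs of the other astrocyte-like barcodes. Without the top barcode of each side the erythroid sums were 154 against 1309 CPM (control) and 184 against 165 CPM (mutant).

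Cluster 1, the shallow cluster with microglial markers, had 49 of 7068 measured genes (0.693%) higher and 125 (1.77%) lower. With genes of other cell types set apart, 35 were higher and 124 lower. The genes that were lower were short, with a median span of 4.76 kb on the genome against 31.8 kb for all measured genes. Cytosolic ribosomal protein genes made up 59 of the 125, out of 77 measured, with a median log2 ratio of -0.83 in the control and -0.81 in the mutant and a summed level of 20005 against 34241 CPM (control) and 16089.7 against 27653 CPM (mutant). Of 11 genes of the actin cytoskeleton 4 were lower, among them Tmsb4x (chrX:167207093-167209315), thymosin beta 4, which binds free actin, at 2353 against 5034 CPM (control, ratio 0.467, interval 0.439 to 0.498) and 1227 against 3495 CPM (mutant, ratio 0.351, interval 0.316 to 0.389). Cst3, cystatin C, stood at 17236 against 29637 CPM (control, ratio 0.582, interval 0.568 to 0.595) and 10525 against 19881 CPM (mutant, ratio 0.529, interval 0.511 to 0.549). The Fc receptor gamma chain gene Fcer1g stood at 518 against 1103 CPM (control) and 311 against 723 CPM (mutant).

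The genes that were higher in cluster 1 included Nr6a1, an orphan nuclear receptor gene, at 463 against 251 CPM (control, ratio 1.84, interval 1.58 to 2.15) and 554 against 315 CPM (mutant, ratio 1.76, interval 1.48 to 2.08), and Arhgap45, a GTPase-activating protein gene, at 865 against 464 CPM (control) and 945 against 607 CPM (mutant). Lag3, an inhibitory immune receptor gene, stood at 123 against 67.2 CPM (control) and 149 against 68.7 CPM (mutant), and Atp13a2, a lysosomal transporter gene, at 105 against 49.1 CPM (control) and 100.4 against 44.9 CPM (mutant). Of 12 microglial markers 1 passed, Olfml3, a secreted glycoprotein gene, at 679 against 1068 CPM (control) and 550.4 against 845 CPM (mutant).

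In cluster 1 the summed ribosomal protein RNA differed more between mitochondrial shares below 10% than across that line. It was 32063 and 36826 CPM (control and mutant) up to 2.5%, 44636 and 27476 CPM at 2.5 to 5%, and already 18840.3 and 16087 CPM at 5 to 10%, beside 19950.5 and 16009.5 CPM at 10 to 20%. With equal weight for each barcode, 0 of 77 ribosomal protein genes passed and the medians were -0.31 and -0.12. The ratios of Tmsb4x were then 0.736 and 0.700 and those of Cst3 0.836 and 0.845, and of the 12 named genes only Atp13a2, Lag3 and Arrdc1 passed. Median non-mitochondrial depth was 1679.5 and 1641.5 UMIs against 2519 and 2474, and the part of depth in the result was not tested.

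Endothelial-like barcodes had 64 of 2667 measured genes (2.4%) higher and 94 (3.52%) lower, and 55 and 94 after genes of other cell types were set apart. Genes that were higher spanned a median of 184 kb on the genome and genes that were lower 5.22 kb, against 44.6 kb for all measured. The receptor gene Igf1r (chr7:67952827-68233668), for insulin-like growth factor 1, was higher at 3727 against 2066 CPM (control, ratio 1.80, interval 1.57 to 2.07) and 4253 against 2787 CPM (mutant, ratio 1.53, interval 1.35 to 1.72). The transcription factor gene Ebf1 stood at 2990.5 against 1727 CPM (control) and 2949 against 1886 CPM (mutant), Prkg1 at 1431 against 729 CPM (control) and 1698 against 737 CPM (mutant) and the matrix gene Hmcn1 at 1701 against 1041 CPM (control) and 2079 against 1371 CPM (mutant).

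Genes that were lower included the interferon-induced Ifitm3 at 312 against 1191 CPM (control, ratio 0.262, interval 0.163 to 0.400) and 285 against 951 CPM (mutant, ratio 0.3001, interval 0.184 to 0.463), and the flow-responsive transcription factor gene Klf2 at 368 against 1000.1 CPM (control) and 231 against 620.3 CPM (mutant). The vascular transcription factor gene Sox18 rested on 4 and 9 UMIs, at 56.7 against 419 CPM (control) and 122 against 427 CPM (mutant), and Id1, a target of bone morphogenetic protein signalling, stood at 326 against 994 CPM (control) and 177 against 659 CPM (mutant). Of 12 endothelial markers 3 were lower. They were Itm2a at 893 against 2981 CPM (control) and 1467 against 2867 CPM (mutant), Ly6c1 at 949.6 against 2846 CPM (control) and 1631 against 2745 CPM (mutant) and Ly6a at 836 against 2117 CPM (control) and 1372 against 2159.7 CPM (mutant). The tight junction gene Cldn5 stood at 2282 against 4667 CPM (control) and 4144 against 4472 CPM (mutant), and Flt1, a vascular endothelial growth factor receptor gene, at 4649 against 4981 CPM (control) and 5421 against 4780.4 CPM (mutant). Cytosolic ribosomal protein genes were lower for 18 of 77 (6 with equal weight for each barcode), with medians of -0.92 in the control and -0.45 in the mutant, and actin genes for 5 of 10. Choroid plexus markers summed to 11381 against 4199 CPM (control) and 14281 against 4289 CPM (mutant), with 7 of 12 at 0 in control and 4 of 12 in mutant high-mitochondrial barcodes. Their part was not tested. The sums behind these values were small, 70563 UMIs in the control and 73599 in the mutant for the high-mitochondrial barcodes.

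Scaling by a trimmed mean shifted all ratios in 3 groups, by -0.17 and -0.23 (control and mutant, log2) in the microglia-like class, -0.15 and -0.10 in cluster 1 and -0.25 and -0.18 in the endothelial-like class. The split of higher against lower then became 122 to 139, 21 to 199 and 16 to 200, in place of 185 to 29, 49 to 125 and 64 to 94. Relative to that scaling the named genes Trpm3 (microglia-like), Arhgap45 and Strbp (cluster 1), and Igf1r, Ebf1, Tshz2 and Hmcn1 (endothelial-like) no longer passed, and kept ratios above 1.

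Fibroblast-like barcodes had 24 of 8178 measured genes (0.293%) higher and 95 (1.16%) lower, and 17 and 45 after genes of other cell types were set apart. Clu, the chaperone clusterin, was higher at 608 against 259.7 CPM (control, ratio 2.34, interval 2.08 to 2.64) and 662 against 349 CPM (mutant, ratio 1.89, interval 1.75 to 2.06), and Prg4, the lubricant proteoglycan lubricin, at 389 against 184 CPM (control) and 614 against 375 CPM (mutant). Msln, mesothelin, a surface protein of mesothelial cells, had 61 UMIs in 5 control high-mitochondrial barcodes and 0 in the other control barcodes, at least 41.8-fold higher against a floor of 3 UMIs over the group, and stood at 23.4 against 4.34 CPM in the mutant. In the control, Dapl1 drew 80.4% of its UMIs in high-mitochondrial barcodes from 1 barcode. Of 9 measured fibroblast markers 2 were lower and 0 higher. They were the collagen-binding proteoglycan genes Dcn and Lum, Dcn at 1154 against 2306 CPM (control) and 947 against 1437 CPM (mutant) and Lum at 70.8 against 166 CPM (control) and 16.4 against 67.6 CPM (mutant). Vtn, the adhesion protein vitronectin, stood at 194 against 941 CPM (control) and 55.4 against 129 CPM (mutant). Of the 12 named fibroblast-like genes, 5 stayed past the rule with equal weight for each barcode, 5 within the largest cluster of high-mitochondrial barcodes, 5 with doublets kept and 7 without the barcode with most UMIs of each gene. With equal weight Prg4, Vtn and Lum did not pass, and the mutant ratio of Vtn was 1.38. Homeostatic microglia genes were lower for 8 of 17, with a median of -0.80 in the control and -0.80 in the mutant, and for 0 with equal weight per barcode, where the medians were 0.03 and 0.22, beside microglia markers that summed to 1092 against 1872 CPM (control) and 965 against 1339.8 CPM (mutant). Their part was not tested.

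**Figure D4:**
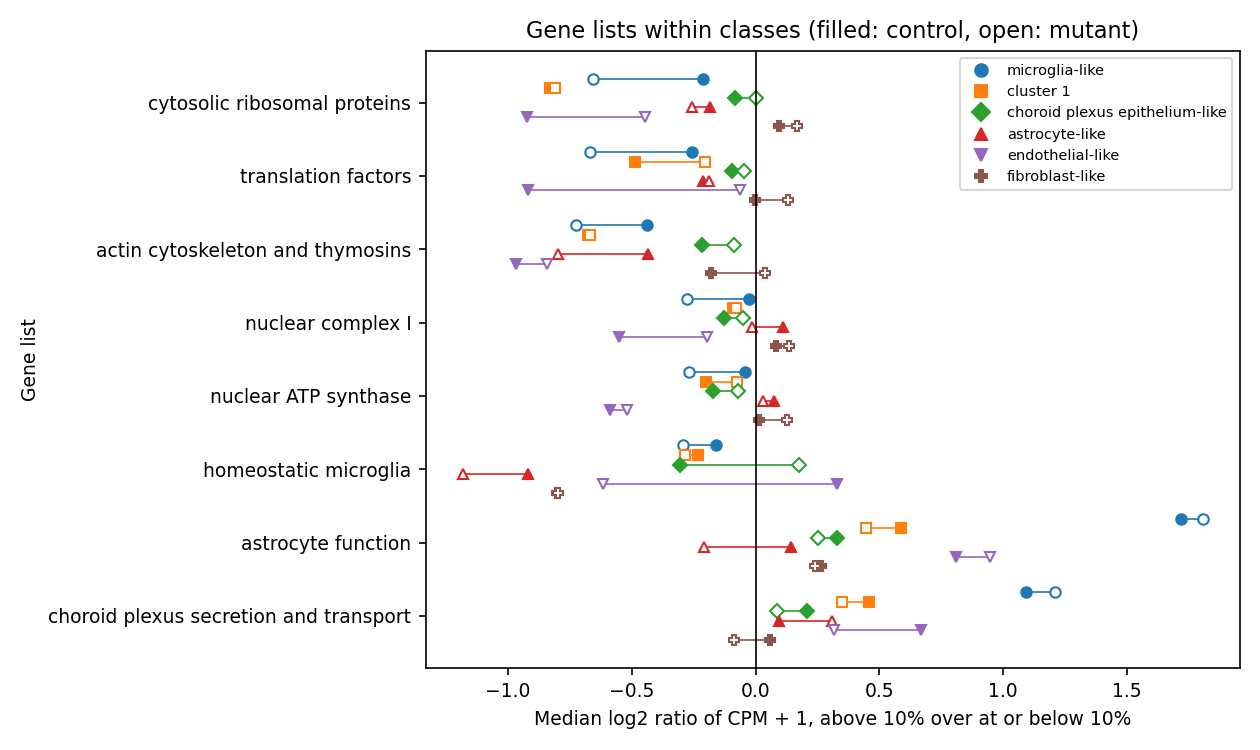
Median log2 ratio of CPM + 1 between high-mitochondrial and other barcodes of a class, for 8 gene lists. Each colour and shape is a class, filled symbols are the control, open symbols the mutant, and a line joins both libraries. Ribosomal, translation and actin lists lie left of 0 in cluster 1 and the endothelial-like class, and the astrocyte and choroid plexus lists lie right of 0 in the microglia-like class.

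Border macrophage-like and ependymal-like barcodes had 20 or more high-mitochondrial ones only in the control, so their genes were compared there alone and without a second library. In the border macrophage-like class 494 of 8390 measured genes (5.89%) were higher and 323 (3.85%) lower. Mrc1, the mannose receptor gene that drives Cre in the mutant, stood at 4882 against 3852 CPM. The complement receptor gene Vsig4, with 12 UMIs over 9 barcodes, stood at 54.0 against 10.8 CPM. The migration-linked gene Nav3 stood at 58.5 against 297 CPM and Crip1 at 40.5 against 186 CPM. Tor2a had 0 UMIs, at least 3.39-fold lower against the same floor, and 196 UMIs in 125 of the 379 other barcodes. Of 12 actin genes 6 were lower, of 17 astrocyte function genes 13 were higher, and of 9 choroid plexus genes 8 were higher and 1 lower. Of 20 type I interferon genes 7 were lower, and of 20 border macrophage identity genes 5 were higher. The choroid plexus markers summed to 6341 against 1961 CPM (control) and 4505 against 3251 CPM (mutant), and their part was not tested. All 84 UMIs of the melanin enzyme gene Dct came from 1 barcode, and 96.1% of those of the cytokine gene Il1b from 1 of 2.

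In the ependymal-like class 467 of 5562 measured genes (8.4%) were higher and 318 (5.72%) lower. The first genes in rank were interferon-induced, Cxcl10, Ifit3, Ifit1, Rsad2 and Isg15, and for each of them 1 of the 54 barcodes held 82.1% to 100% of the UMIs. The interferon list summed to 1795 against 774 CPM, and to 865 CPM without the barcode that held most of its UMIs. In the mutant, with 17 high-mitochondrial barcodes, it summed to 635 against 974.6 CPM. Cilia and axoneme genes, which build the beating cilia of these cells, had 1 of 23 higher and 0 lower. Klf6, a transcription factor gene, stood at 20.3 against 75.7 CPM, Clec3b, the gene of the plasminogen-binding protein tetranectin, at 149 against 315 CPM, and Pvalb, the calcium-buffer parvalbumin, at 30.4 against 102 CPM.

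Cluster 20 was almost wholly high-mitochondrial, with 45 of 45 control and 30 of 32 mutant barcodes above 10%. Its median mitochondrial share was 43.4%, with a median of 1963 UMIs, 1045 of them non-mitochondrial, and 673 genes. Mitochondrial rRNA made up 36.8% of its mitochondrial UMIs. It passed 8 astrocyte markers, but its leading 10 genes held 0 of them and at least 1 marker of another class, so it stayed unnamed. Its astrocyte markers summed to 18664 CPM and its choroid plexus markers to 17295 CPM, and since it clusters on these genes they describe it and test nothing.

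Several leading genes of cluster 20 encode proteins of neuronal axons and synapses. Kif5a, a kinesin motor of axonal transport, was read in 59.7% of its barcodes, at 1121 (control) and 1635 CPM (mutant), against 86.8 CPM in the neuron-like class, the highest named class. That class is cluster 23, with 42 barcodes and leading genes that include Sox11, Dcx and Top2a. It held Camk2a at 3.77 and Nrgn at 5.66 CPM, so its levels need not stand for other neurons. Camk2a was at 942 (control) and 1801 CPM (mutant), and Nrgn, neurogranin, a postsynaptic calmodulin-binding protein, at 568 (control) and 1452 CPM (mutant), against at most 41.8 and 31.7 CPM in any named class. Camk2n1, an inhibitor of that kinase, stood at 2347 (control) and 5108 CPM (mutant). Mbp, the myelin basic protein gene whose mRNA is carried into the myelin sheath, stood at 1899 (control) and 2701 CPM (mutant), below the 3927 CPM of oligodendrocyte-like barcodes. Among genes chosen after their values were seen, Slc1a2, the main astrocyte glutamate transporter, stood at 6564 (control) and 7368 CPM (mutant), near the 6478 CPM of the astrocyte-like class. Slc17a7, the glutamate loader of excitatory synaptic vesicles, stood at 119.6 (control) and 220.5 CPM (mutant).

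**Figure D5:**
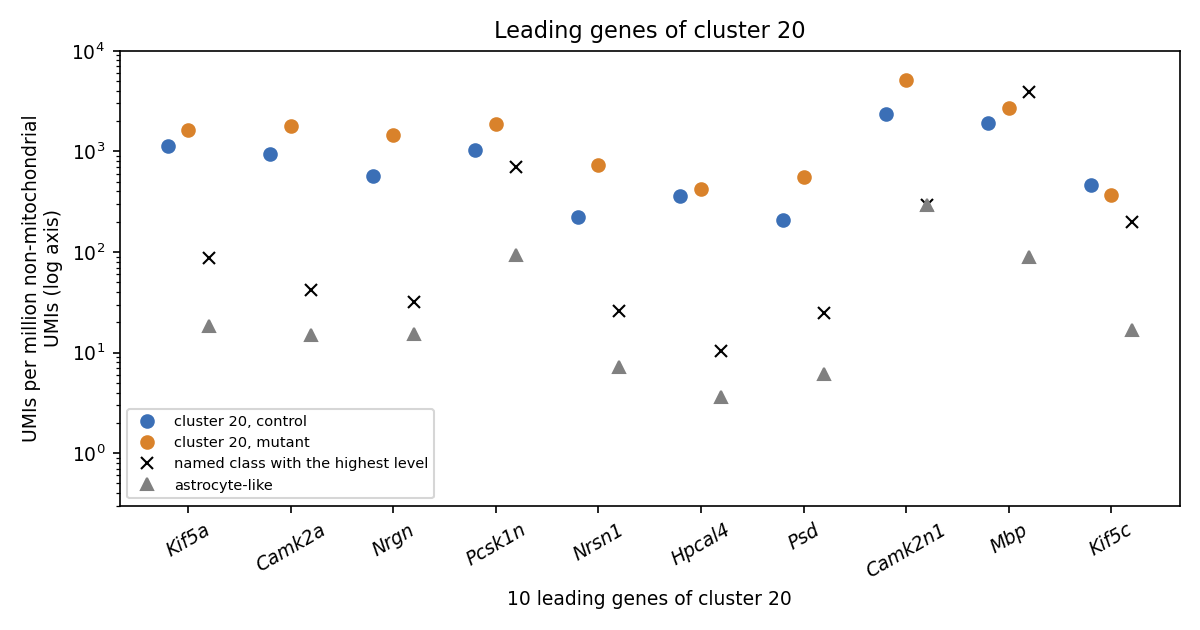
Levels of the 10 leading genes of cluster 20 (CPM, log axis) in its control and mutant barcodes, in the named class with the highest level and in the astrocyte-like class. Cluster 20 lies above both for 9 of the 10 genes, and below the oligodendrocyte-like class for Mbp.

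Markers of several other cell types, though not erythroid ones, moved with the mitochondrial share in most classes. Over the 14 pairs of class and library outside the choroid plexus class, its markers summed higher in high-mitochondrial barcodes in 11, with a median ratio of 2.23. The 3 exceptions were both fibroblast-like pairs and the mutant ependymal-like pair. Astrocyte markers were higher in 12 of 14 pairs (median ratio 1.58), neuron markers in 15 of 16 (1.80) and oligodendrocyte markers in 15 of 16 (1.40), while microglia markers were lower in 10 of 12 (0.705). Erythroid markers were higher in 8 of 16 pairs and lower in 8 (1.08). The depth of these barcodes was lower in all of the same pairs, and the parts of depth and of RNA from other cells cannot be told apart in these sums.

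Between the libraries, high-mitochondrial choroid plexus epithelium-like barcodes had 69 (0.708%) genes past the same size and interval higher and 798 (8.19%) lower in the mutant, of 9748 measured, against 126 (1.29%) and 263 (2.7%) in the other barcodes. Frmpd4, a synaptic scaffold gene, stood in high-mitochondrial barcodes at 250.2 (control) and 69.9 CPM (mutant, ratio of mutant to control 0.279, 0.254 to 0.307), and in the others at 184 and 254 CPM. The orphan nuclear receptor gene Esrrg stood at 146 (control) and 40.4 CPM (mutant, ratio of mutant to control 0.276, 0.244 to 0.312), and in the others at 135 and 197 CPM. Both genes mark cluster 12 of this class, which held 39 of 567 control but 11 of 850 mutant high-mitochondrial barcodes, and 41 of 635 and 89 of 1069 of the others.

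In microglia-like high-mitochondrial barcodes, 165 (6.19%) genes were higher and 91 (3.42%) lower in the mutant of 2664 measured, against 7 (0.263%) and 21 (0.788%) in the others. The high-mitochondrial sums held 336752 (control) and 299741 (mutant) non-mitochondrial UMIs, against 27098721 and 28503962 in the others. Counting error is larger in the smaller sums, so the counts of high-mitochondrial and other barcodes cannot be compared directly. Lrmda stood at 1414 (control) and 2412 CPM (mutant, ratio of mutant to control 1.71, 1.52 to 1.92), and in the others at 1139 and 1695 CPM. Nbea, a vesicle traffic gene, stood at 190.1 (control) and 53.4 CPM (mutant, ratio of mutant to control 0.281, 0.152 to 0.492), and in the others at 144 and 37.7 CPM. The floxed gene Csf1r stood at 2376 (control) and 1828 CPM (mutant, ratio of mutant to control 0.770, 0.689 to 0.859), and in the others at 2441 and 1928 CPM. Of the 165 and 91 genes, 2 and 15 were also past the size and interval in the same direction in the others. Stx16, a gene of vesicle fusion, stood at 80.2 (control) and 227 CPM (mutant, ratio of mutant to control 2.83, 1.79 to 4.598), and in the others at 129 and 139 CPM. The ribosomal protein gene Rps10 stood at 644 (control) and 324 CPM (mutant, ratio of mutant to control 0.502, 0.391 to 0.641), and in the others at 642 and 597 CPM. High-mitochondrial astrocyte-like barcodes had 283 (2.75%) genes higher and 400 (3.88%) lower, against 250 (2.43%) and 199 (1.93%) in the others. In cluster 1 there were 138 (4.31%) genes higher and 163 (5.09%) lower, against 34 (1.06%) and 83 (2.59%) in the others. The fibroblast-like class had 162 (2.31%) genes higher and 320 (4.56%) lower, against 115 (1.64%) and 168 (2.39%) in the others. The endothelial-like class had 44 (9.09%) genes higher and 31 (6.4%) lower, against 24 (4.96%) and 10 (2.07%) in the others. The same limit holds for the other classes, whose high-mitochondrial sums were also the smaller ones, except in control astrocyte-like barcodes. With 1 library per genotype these counts describe 2 libraries and could not be set against the spread between animals.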

How the data were processed

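Single-cell libraries of the 2 genotypes were deposited by the authors as unnormalised UMI counts for each gene in each barcode, made with Cell Ranger 7.1.0 per the file headers. The submitters' processing notes name the builds GRCm38.p6 and mm10. How barcodes were selected before deposit, and whether introns were counted or free RNA corrected for, is not given in the sources used here. Of 26033 genes, 37 carry symbols that start with mt- (13 protein-coding, 2 rRNA and 22 tRNA), and gene locations come from the GENCODE annotation of GRCm38. The lists include a nuclear-retained RNA list of which the gene table holds too few members, so it is not analysed here.

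Barcodes with at least 500 genes entered. Scrublet (scanpy 1.11.5) marked doublets within each library, which were removed, and all barcodes were clustered together (2000 variable genes, 30 components, 15 neighbours, Leiden resolution 1, igraph 0.11.9) without mitochondrial or sex-linked genes and without integration, which gave 25 clusters. The main alternatives moved the threshold, the gene and UMI minimums, the scaling, the weight of barcodes and the clustering. Numpy 2.4.6 and scipy 1.17.1 were used. A cluster was named when at least 3 markers of 1 class were found in 25% of its barcodes at 25% of the highest cluster's level and no other class came within 75% of that number. It stayed unnamed when its leading 10 genes held markers of another class and at least as many of them as of its own. It also stayed unnamed when it passed only 3 markers with 0 among those 10 genes. The same held when its median depth was under 1/3 of its library's with no own marker among them. The thresholds of this rule were set after clusters had been seen. The classes were rebuilt and can differ from the study's.

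Classes with at least 20 high-mitochondrial and 20 other barcodes in each library were compared. Genes named in the text are, per class, up to 10 (largest class) or 6 (others) higher and as many lower past the size rule at 20 CPM or more on 1 side in both libraries and not below 10% of their level in another named class, ranked by the interval bound nearer to 1. Each class's markers and up to 4 genes of a described list were named beside them. Some genes that the rule takes are not reported here. Exceptions are said to be chosen after their values were seen. The barcodes, the 34 gene lists and the tests were chosen with earlier results of these data known. log2 ratios add 1 CPM to both sums. The code of the size rule was tested on simulated data.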

Additional observations from a re-analysis of the deposited data

How the results depend on the processing

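No paired analysis was possible because there is 1 library per genotype. Each library alone passed 211 to 218 genes higher and 515 to 536 lower in astrocyte-like, 81 to 284 and 133 to 653 in choroid plexus epithelium-like, 261 to 457 and 302 to 382 in cluster 1, 217 to 292 and 249 to 345 in endothelial-like, 153 to 234 and 408 to 488 in fibroblast-like and 667 to 903 and 166 to 384 in microglia-like barcodes, all above the counts that both libraries shared. No named gene passed the rule in the opposite direction under any alternative run, but many no longer passed when the line moved. At 5% those that still passed were 1 of 12 in microglia-like, 2 of 12 in endothelial-like and 1 of 2 in choroid plexus epithelium-like barcodes. They were 11 of 12 in astrocyte-like barcodes, and 9 of 12 in cluster 1 and in fibroblast-like barcodes. At 20% they were 0 of 2 in choroid plexus epithelium-like and 1 of 12 in fibroblast-like barcodes. In what follows counts are genes higher, then lower, in high-mitochondrial barcodes, and the cause of each change was not tested.

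The share above the line was 55.2% in the control and 50.7% in the mutant at a threshold of 5%, and 5.54% and 2.95% at 20%. It was 32.1% and 25.3% with at least 200 genes, 27.3% and 19.0% with at least 1000 genes, and 15.3% and 11.3% from the 13 protein-coding mitochondrial genes, a setting chosen after seeing the data. At 5% the depth ratio turned to 1.02 in control astrocyte-like and to 1.51 and 1.08 in control and mutant fibroblast-like barcodes, and rose to 0.799 and 0.360 in microglia-like ones. At 20% it was 0.379 and 0.429 in choroid plexus epithelium-like and 0.289 and 0.270 in fibroblast-like barcodes. Typing by neighbours gave 162 control and 161 mutant microglia-like high-mitochondrial barcodes. Clustering resolution 2 gave 4 and 8 endothelial-like ones and 7 mutant oligodendrocyte-like ones.

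The 5% threshold gave 2 genes lower in microglia-like, 48 and 7 in choroid plexus epithelium-like, 114 higher in astrocyte-like, 231 lower in cluster 1, 120 and 437 in fibroblast-like and 21 and 19 in endothelial-like barcodes. The 20% threshold gave 102 higher in choroid plexus epithelium-like and 183 higher in fibroblast-like barcodes. Some groups kept few of the genes that passed in the main run. Choroid plexus epithelium-like barcodes kept 1 of 22 higher at 5% and 0 at 20%, and 0 of 12 lower at both. At 5%, 0 of 29 lower stayed in microglia-like and 5 of 94 lower in endothelial-like barcodes. At 20%, 4 of 24 higher stayed in fibroblast-like ones. Other sets kept more at 5%, such as 107 of 125 lower in cluster 1 and 80 of 185 higher in microglia-like barcodes. With equal weight for each barcode the counts were 404 and 357 in microglia-like, 39 and 26 in choroid plexus epithelium-like, 61 lower in astrocyte-like, 15 and 8 in cluster 1 and 31 higher in endothelial-like barcodes. With doublets kept they were 73 lower in microglia-like, 14 and 173 in choroid plexus epithelium-like and 28 and 241 in astrocyte-like barcodes. A ratio of at least 2 left 4 lower in microglia-like, 0 and 2 in choroid plexus epithelium-like, 0 and 68 in astrocyte-like, 9 and 18 in cluster 1, 5 and 35 in fibroblast-like and 14 and 36 in endothelial-like barcodes. A minimum of 200 UMIs left 112 higher in microglia-like, 2 and 3 in choroid plexus epithelium-like, 6 and 48 in astrocyte-like, 15 higher in cluster 1, 7 and 34 in fibroblast-like and 18 higher in endothelial-like barcodes, and a minimum of 20 gave 27 higher in astrocyte-like ones. At 2000 or more non-mitochondrial UMIs the counts were 56 and 9 in microglia-like barcodes and 29 higher in cluster 1. The cluster with most high-mitochondrial barcodes alone gave 79 higher in microglia-like, 48 and 2 in choroid plexus epithelium-like and 9 and 59 in astrocyte-like barcodes. Trimmed-mean scaling gave 122 and 139 in microglia-like barcodes, 21 and 199 in cluster 1 and 16 and 200 in endothelial-like barcodes. Of the settings chosen after seeing the data, leaving out cluster 0 gave 73 and 12 in microglia-like barcodes, and leaving out the barcode with most UMIs of each gene gave 104 higher in endothelial-like and 15 higher in fibroblast-like ones. No value was possible at 20% for microglia-like, astrocyte-like and endothelial-like barcodes and cluster 1, at 2000 UMIs for endothelial-like barcodes, or with doublets kept for cluster 1, because too few barcodes remained or clusters were drawn anew. The same held for cluster 1 and endothelial-like barcodes in the cluster with most high-mitochondrial barcodes, since each is 1 cluster.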

Other observations

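Below the minimum of 500 detected genes lay 658 control and 761 mutant barcodes, which are not part of the description above. Of these, 506 (76.9%) and 622 (81.7%) had more than 10% mitochondrial UMIs, against 28.9% and 21.1% of barcodes with at least 500 genes. Unnamed cluster 22, led by the neuropeptide gene Npy, the melanin enzyme gene Dct, the fatty acid-binding protein gene Fabp7 and the secreted Wnt antagonist gene Frzb, had 25 of 39 control barcodes (64.1%, 47.2 to 78.8) and 17 of 39 mutant barcodes (43.6%, 27.8 to 60.4) above 10%. Unnamed cluster 17, which carries both pericyte and microglia markers and is led by Rgs5, a pericyte G protein regulator gene, and Vtn, had 11 of 28 and 26 of 55 above 10%.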
